A study of Mus musculus with 2 samples.

Results

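The 10 heat shock genes described here are Hspa1a, Hspa1b, Hspa8, Hspa5, Hsph1, Dnajb1, Dnaja1, Hsp90aa1, Hsp90ab1 and Hspb1. They were found by gene symbol among the 32285 genes of the count tables, and the list was chosen on their lower UMI levels in the mutant library, so that direction is a description and not an independent result. Droplet-based 3′ scRNA-Seq was done on retina of male C57BL/6J mice aged 7 months, dissociated with trypsin and papain. The WT library (replicate 1) came from C57BL/6J mice, and the ND6 library (replicate 1), called mutant, from mice that carry a missense mutation of the mitochondrial gene ND6, which encodes a subunit of complex I. The number of mice per library is not given, and the mutation itself could not be checked from these counts. The mutant line was made by fusion with female embryonic stem cells and bred to WT males. With 1 library per group no test was possible, a difference between genotypes cannot be told apart from a difference between these libraries, and every interval below is a 95% interval that covers counting error only.

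Cytosolic chaperones fold new proteins and refold damaged ones. HSP70 proteins bind exposed stretches of a client, J-domain partners deliver clients and start ATP hydrolysis, HSP110 proteins release the nucleotide, HSP90 proteins mature signalling clients, and small heat shock proteins hold unfolded chains. Heat shock factor 1 raises the inducible members within minutes of heat, oxidants or protein damage by binding repeats of a short element in their promoters. Hspa5 is not a cytosolic gene, since it encodes BiP, the HSP70 protein of the endoplasmic reticulum (ER), which the unfolded protein response controls.

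The promoters of these genes differ in the elements they hold. The windows below are the 130 bases before the start site, taken from RefSeq on GRCm38.p6, which held promoter entries for 7 of the 10 genes, and are written 5′ to 3′ on the gene's strand. Capitals mark a heat shock element of 2 units (GAANNTTC or TTCNNGAA, searched on both strands) or, in Hspa5, the ER stress response element, a CCAAT and a CCACG with 9 bases between them. They lie at chr17:34972157-34972286 on the minus strand (Hspa1a), chr17:34959239-34959368 on the minus strand (Hspa1b), chr5:135887789-135887918 on the plus strand (Hspb1), chr4:40722338-40722467 on the plus strand (Dnaja1) and chr2:34771960-34772089 on the plus strand (Hspa5). The first 4 are shown for their heat shock elements, with Hspa1a and Hspa1b as a near-identical pair, and Hspa5 for its different element.
Hspa1a: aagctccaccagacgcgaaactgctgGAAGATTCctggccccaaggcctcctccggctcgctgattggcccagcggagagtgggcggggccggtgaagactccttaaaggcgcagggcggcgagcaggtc
Hspa1b: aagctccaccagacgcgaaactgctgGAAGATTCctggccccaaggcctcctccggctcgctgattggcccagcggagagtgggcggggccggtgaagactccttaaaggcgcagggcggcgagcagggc
Hspb1: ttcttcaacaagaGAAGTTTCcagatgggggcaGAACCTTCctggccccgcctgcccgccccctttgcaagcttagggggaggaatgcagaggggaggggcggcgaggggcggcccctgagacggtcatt
Dnaja1: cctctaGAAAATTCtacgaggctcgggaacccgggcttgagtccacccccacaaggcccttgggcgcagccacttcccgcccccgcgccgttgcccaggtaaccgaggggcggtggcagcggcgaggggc
Hspa5: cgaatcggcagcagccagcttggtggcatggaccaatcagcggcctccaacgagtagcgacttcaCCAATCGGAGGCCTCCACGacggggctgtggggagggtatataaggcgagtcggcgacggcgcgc

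An element of 2 units was found in at least 1 promoter of 5 of the 7 genes (the 4 above and Hsph1), which had 11 promoter entries together. Counted per promoter, 15.1% of all 32851 promoters of 300 bases held one, so the 2 counts differ in unit. Dnaja1 also had entries at start sites 40722922 and 40722930, which held none. Hsph1 also held a run of 3 alternating units, which 0.603% of promoters held. The ER stress response element of Hspa5 was held by 0.119%, and Dnajb1 held none of these elements. Over 300 bases the Hspa1a and Hspa1b promoters differed at 4 positions (98.7% identity), of which 1 lay in the 130 bases shown. A match describes letters and not a bound site.

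In GENCODE M21 on GRCm38 all 10 are protein-coding genes. Hspa1a (chromosome 17, 34969190 to 34972156) and Hspa1b (chromosome 17, 34956436 to 34959238) lie beside each other on the minus strand. A 3′ library reads the ends of transcripts, so the last 500 bases of each principal transcript were compared with all other annotated transcripts. No window of 100 bases in the ends of Hspa1a and Hspa1b occurred in each other or in another gene. For Hspa8, 79.3% of windows also occurred in 7 other annotated genes with predicted-gene symbols, and for Hspb1, 48.9% occurred in its pseudogene Hsp25-ps1. Counts of Hspa8 and Hspb1 are therefore uncertain to that extent.

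With more than 400 UMIs, more than 200 genes and at most 20% mitochondrial UMIs required of a barcode, 12529 WT and 18395 mutant cells remained, with medians of 1878 and 1416 UMIs per cell. The libraries shared 59 cell barcodes. Mitochondrial transcripts took 8.19% of WT and 7.02% of mutant UMIs in cells. Clusters were named from markers, with the members left out of the clustering. The classes were rods (9722 WT and 13178 mutant cells), cones (630 and 1116), bipolar cells (237 and 638), amacrine cells (78 and 299), retinal pigment epithelium or RPE (333 and 956), red blood cells (271 and 585) and microglia or macrophages (257 and 142), each called like its name only. A cluster led by Spc25, Nefl, Dkk3 and Glul (1001 and 1481 cells) mixed markers of classes and was left unnamed. Rod marker UMIs were present in every class, between 18671 and 87156 CPM (a gene's UMIs scaled to 1000000 UMIs) summed over 12 markers, so no class is free of UMIs of rod genes. In bulk sums of this kind, fewer expressing cells and less RNA per cell cannot be told apart.

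Over all cells every member was lower in the mutant library. On the log2 scale the median ratio of mutant to WT was -0.97 over the 10 members, against 0.07 over the 15888 genes with at least 20 UMIs, and without Hspa5 it was -0.97 over 9. Intervals of all 10 lay below 0. Among all genes 43.3% were lower. Of the members, 4 were at least 2-fold lower, namely Hspa1b, Hsph1, Hspa8 and Hspa5, against 2.81% of all genes, and none was at least 2-fold higher, against 8.6%. Hspa5 lay just inside that limit (-1.01) and Dnajb1 just outside it (-0.98). Since the list was chosen on this contrast, nothing is read from these counts.

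**Figure D1:**
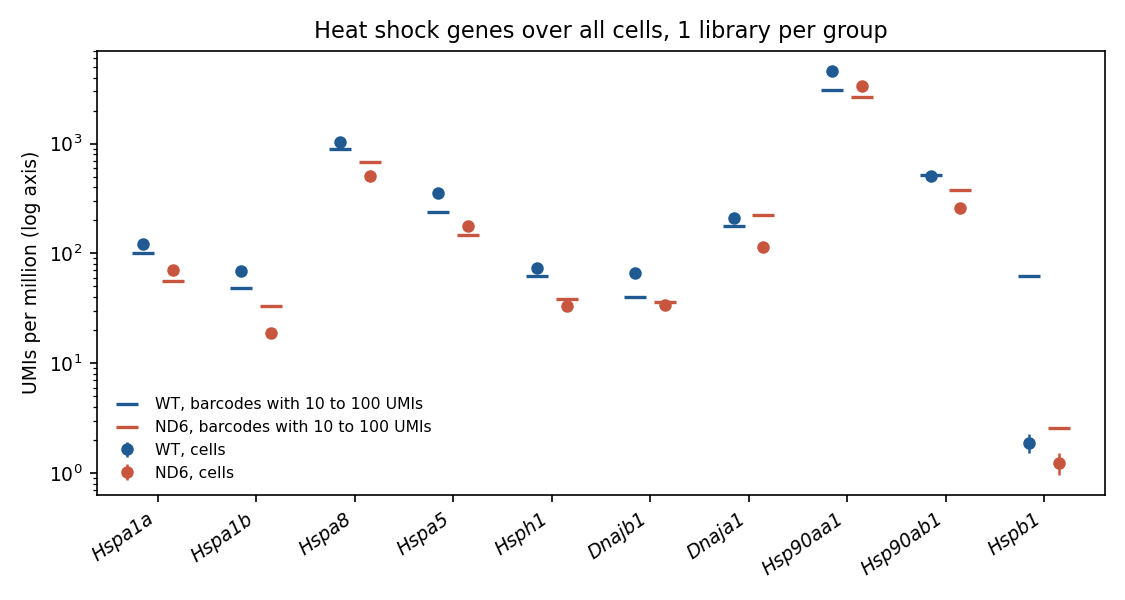
Points show the CPM of each gene summed over all cells of the WT and the mutant library (ND6; log axis), with exact 95% Poisson intervals that are mostly smaller than the point, and short bars show the same in barcodes with 10 to 100 UMIs. All 10 mutant points lie below their WT points, and Hspb1 stands out for a WT bar far above its point (61.9 against 1.87 CPM).

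The inducible HSP70 genes Hspa1a and Hspa1b encode nearly the same protein. Hspa1a stood at 120.5 CPM in WT (6571 UMIs) and 71.2 in mutant (4482 UMIs), a log2 ratio of -0.76 (interval -0.81 to -0.70). Hspa1b stood at 68.7 CPM in WT (3746 UMIs) and 19.0 in mutant (1196 UMIs), a log2 ratio of -1.85 (interval -1.95 to -1.76). That placed Hspa1b 97th from the lowest of 15888 ratios, while Hspa1a was 751st.

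Hspa8, the constitutive HSP70 that also uncoats clathrin vesicles, had 1028 CPM in WT and 504 in mutant (log2 -1.03, interval -1.05 to -1.01). Hsph1, the HSP110 nucleotide exchange factor, had 73.0 and 32.8 CPM (log2 -1.15, interval -1.23 to -1.07). Among the J-domain genes, Dnajb1, the heat-inducible HSP40, had 65.9 CPM in WT and 33.5 in mutant (log2 -0.98). Dnaja1, which is more evenly present across tissues, had 208 CPM in WT and 113 in mutant (log2 -0.87). These 4 genes of the HSP70 cycle moved over a narrow range, from -1.15 to -0.87.

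The HSP90 pair moved unequally. Hsp90aa1, the inducible alpha form, went from 4578 to 3347 CPM, a log2 ratio of -0.45 (interval -0.46 to -0.44) and the smallest of the 10. Hsp90ab1, the constitutive beta form, went from 505 to 259 CPM (log2 -0.97, interval -0.99 to -0.94). The ER member Hspa5 went from 355 to 177 CPM (log2 -1.01, interval -1.04 to -0.97). Hspb1, the small heat shock protein HSP25, was scarce, with 102 UMIs in WT (1.87 CPM) and 77 in mutant (1.22 CPM), and its ratio had a wide interval (log2 -0.61, interval -1.06 to -0.17).

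Shares of cells with a UMI were compared after each cell was thinned to 400 UMIs. Hspa8 was then found in 33.5% of WT cells (interval 32.6 to 34.3) and 18.6% of mutant cells (18.1 to 19.2). Hspa1a was found in 4.16% and 2.71%, Hspa1b in 2.19% and 0.772%, and Dnajb1 in 1.98% and 1.19%. Unthinned, Hspa1a was found in 26.0% of WT and 16.4% of mutant cells. Thinned shares were lower in mutant for 9 members. The exception was Hspb1, with 0.0479% of WT cells (6 cells) and 0.0598% of mutant cells (11 cells). Red blood cells, which have no nucleus, had thinned Hspa1a shares of 3.69% in WT and 3.25% in mutant, beside 4.41% and 3.005% in rods. The intervals of these shares overlap (1.78 to 6.68 and 4.01 to 4.84 in WT). Summed rod markers stood at 81285.5 CPM in WT and 87156 in mutant red blood cells, beside 82739 and 85775 in rods. Red blood cells therefore do not give a background free of rod RNA, and the share in rods is not read as above background.

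Barcodes with 10 to 100 UMIs were taken as free RNA, although their match to free RNA within cells was not tested. They numbered 7324 in WT and 8621 in mutant. Hspa1a stood there at 101.7 CPM in WT (interval 64.5 to 153) and 56.5 in mutant (35.4 to 85.6), and Hspa8 at 893 (774 to 1025) and 676 (596 to 762). In WT rods 8 members lay inside the interval of free RNA, as Hspa1a did (121.5 CPM), and Hspb1 lay below it (0.361 against 61.9 CPM). Only Hsp90aa1 lay above it, at 4846 CPM against 3064. In mutant rods Hsp90aa1 was again the only one above, at 3618 CPM against 2651, while Hspa8 (454 CPM), Dnaja1 (91.7 against 226) and Hsp90ab1 (194 against 378) lay below. No other member stood above free RNA in rods of either library. Rods were most of the cells, so free RNA may itself be largely rod RNA. A rod level inside the interval of free RNA therefore cannot tell whether that level is background. Within free RNA itself Hspa8 had a log2 ratio of -0.40 (interval -0.67 to -0.13), nearer to 0 than in cells, and Dnaja1 had 0.35 (interval -0.20 to 0.93). The part of free RNA in the differences between cells was not tested.

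The classes were compared next, to describe the levels by kind of cell. In rods 9 of 10 members were lower in mutant, against 47.4% of all genes. At least 2-fold lower were 4 (Hspa1b, Hspa8, Hsph1 and Hsp90ab1), against 1.27% of genes. In the other classes between 38.6% (red blood cells) and 51.8% (cones) of all genes were lower. Each percent that follows is of genes at least 2-fold lower. In the Glul- and Nefl-rich cluster 9 of 10 were lower and 5 at least 2-fold lower, against 1.18%. In cones all 10 were lower and 7 at least 2-fold lower, against 1.22%. In RPE all 10 were lower and 3 at least 2-fold lower, against 2.38%, and 1 WT cell decided part of this, as given below. In bipolar cells 9 of 9 measured members were lower and 3 at least 2-fold lower, against 1.48%. In red blood cells 9 of 9 were lower and 4 at least 2-fold lower, against 2.41%. In microglia or macrophages 9 of 9 were lower and 8 at least 2-fold lower, against 6.09%. In amacrine cells all 10 were lower and 4 at least 2-fold lower, against 2.27%. Measured means at least 20 UMIs over both libraries. Since the members were chosen on this contrast, nothing is read from these counts or from those of subsets of cells below.

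**Figure D2:**
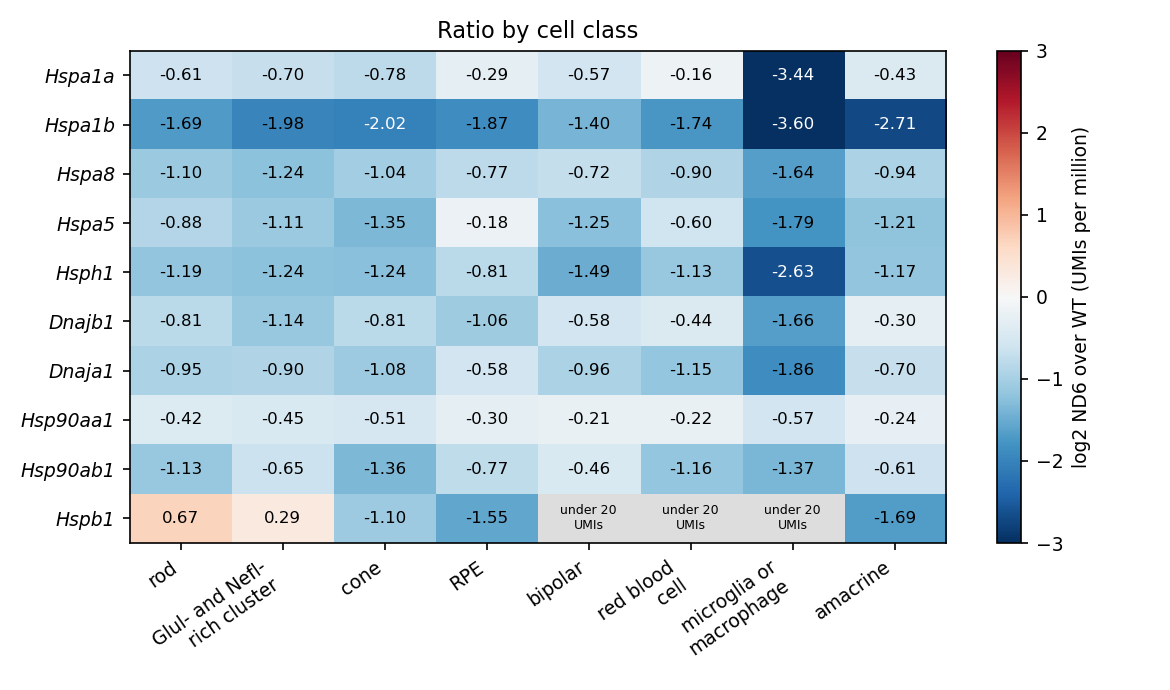
Each cell gives the log2 ratio of mutant to WT CPM for a gene (rows) in a class (columns), where blue is lower in mutant (ND6), red higher, and grey marks fewer than 20 UMIs. The Hspa1b row (-3.60 to -1.40) and most of the microglia or macrophage column are dark, the Hsp90aa1 row is pale (-0.57 to -0.21), and the only positive values are those of Hspb1 in rods (0.67) and in the Glul- and Nefl-rich cluster (0.29).

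Hspa1b had the lowest ratio of the members in 7 of the 8 classes, from -3.60 in microglia or macrophages to -1.69 in rods. The exception was bipolar cells, where Hsph1 was lower (-1.49 against -1.40). In rods Hspa1b had 68.8 CPM in WT and 21.3 in mutant (log2 -1.69, interval -1.81 to -1.57). In cones it had 79.7 and 19.6 CPM (log2 -2.02, interval -2.22 to -1.83). Hsp90aa1 moved little in all 8 classes, from -0.57 in microglia or macrophages to -0.21 in bipolar cells.

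In RPE several of these values rest on 1 WT cell of 303625 UMIs, 16.8% of the UMIs of the class. Without the deepest cell of each library, an alternative added after the data were seen, 8 of 10 members were lower in RPE and 2 at least 2-fold lower (Hspa1b and Hspb1). Hsp90aa1 then had 2337 CPM in WT and 2424 in mutant (log2 0.05, interval -0.01 to 0.12), against -0.30 with that cell, and Hspa1a had a log2 ratio of 0.34 (interval -0.22 to 0.91). Dnajb1 went from -1.06 to -0.23, and Hspb1 (-1.78) rather than Hspa1b (-1.29) had the lowest ratio. In the other 7 classes the count of lower members did not change.

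Hspa5 moved little in RPE and more in neurons. In RPE, which secretes much protein, it had 688 CPM in WT and 606 in mutant (log2 -0.18, interval -0.31 to -0.06, and -0.28 without the deepest cells). In cones it had 439 and 172 CPM (log2 -1.35, interval -1.43 to -1.28), in bipolar cells 379 and 160 CPM (log2 -1.25) and in amacrine cells 392 and 170 CPM (log2 -1.21). The intervals of RPE and of these 3 classes do not overlap. In mutant, RPE held the highest Hspa5 level of all classes. Hspa8 in RPE went from 1085 to 634 CPM (log2 -0.77).

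Some members were higher in particular neurons in both libraries. Hsp90ab1 stood at 1159 CPM in WT and 760 in mutant amacrine cells, and at 708 and 513 CPM in bipolar cells, against 426 and 194 CPM in rods. Its ratio was -0.46 in bipolar cells (interval -0.57 to -0.36), smaller than that of rods (-1.13, interval -1.18 to -1.09). Dnaja1 stood at 527 and 272 CPM in bipolar cells against 178 and 91.7 CPM in rods. Hsph1 stood at 134 and 56.4 CPM in cones against 57.3 and 25.1 CPM in rods. Hspb1 had its highest WT levels in amacrine cells, with 23.0 CPM in WT and 7.14 in mutant (17 and 13 UMIs), and in RPE, with 17.2 and 5.86 CPM (31 and 10 UMIs). Both WT levels lay below that of free RNA (61.9 CPM, on 14 UMIs) but far above that of WT rods (0.361 CPM). Whether they are background cannot be told from these values. In rods Hspb1 had only 12 and 19 UMIs, and the interval of its positive ratio included 0 (-0.45 to 1.85).

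For Hspa1a the levels of RPE (49.3 CPM in WT), amacrine cells (48.7) and bipolar cells (58.5) lay below the free RNA level of 101.7 CPM. They are therefore not read as above background, and the part of free RNA in them was not tested. In RPE 42 of the 89 WT UMIs of Hspa1a came from 1 cell. The intervals of the Hspa1a ratio included 0 in RPE, amacrine cells and red blood cells.

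The balance of Hspa1a and Hspa1b does not depend on how the libraries are scaled. In all WT cells Hspa1b took 36.3% of the UMIs of the pair (interval 35.4 to 37.2), and in mutant cells 21.1% (20.01 to 22.1). The share was lower in mutant in all 8 classes, with intervals that did not overlap in 5 (rods, cones, RPE, amacrine cells and the Glul- and Nefl-rich cluster). In rods, cones, RPE, amacrine and bipolar cells the WT levels of neither gene lay above the interval of free RNA (48.6 CPM for Hspa1b, interval 24.3 to 87.0). The part of free RNA in these shares was not tested. In rods the Hspa1b share was 36.2% in WT and 21.1% in mutant, in cones 40.3% and 22.2%, and in RPE 39.5% and 17.9% (41.2% and 18.5% without the deepest cell of each library). Amacrine cells held 24 Hspa1b and 36 Hspa1a UMIs in WT, and 9 and 66 in mutant. In bipolar cells (33.6% and 22.2%) and red blood cells (41.5% and 19.2%) the intervals overlapped. Above the mitochondrial limit the shares were 39.7% and 26.5%. In free RNA they were 32.4% in WT (17.4 to 50.5) and 37.1% in mutant (21.5 to 55.1), so the lower share of mutant cells was not seen there at this depth. WT microglia or macrophages had 19.3% (interval 16.0 to 23.0). That value came from a cluster of 48 cells led by Ccl4, described below, with 17.6% (82 of its UMIs, 66 of them in 5 cells), while the other 209 WT cells had 39.0% (16 UMIs, interval 24.2 to 55.5).

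**Figure D3:**
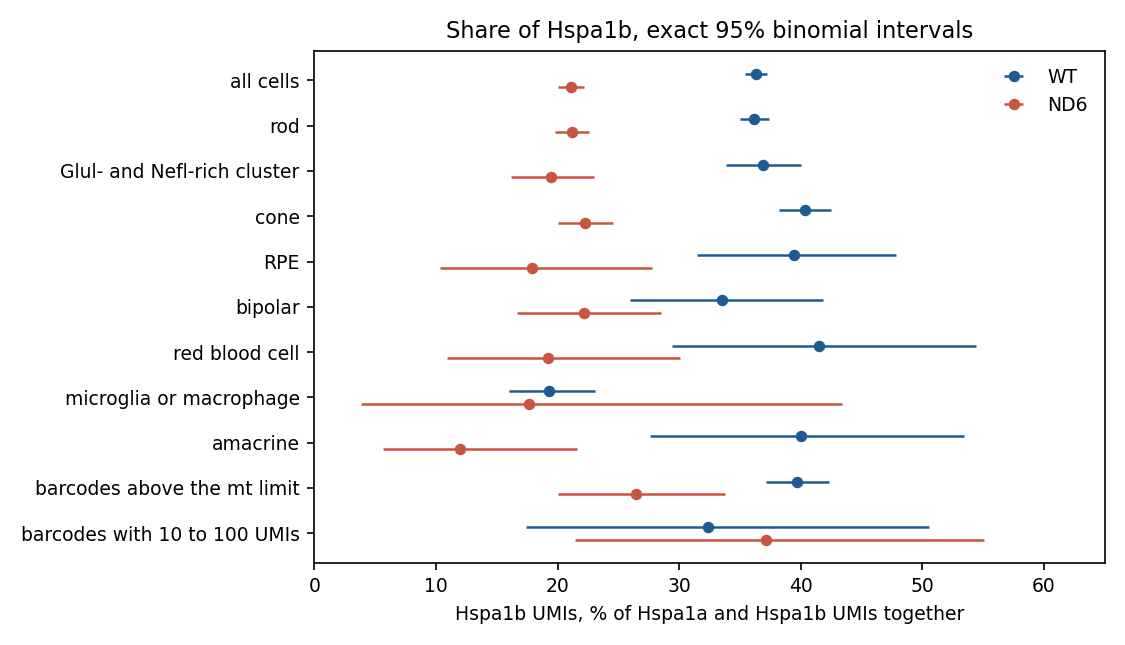
Points give Hspa1b UMIs as a percent of Hspa1a and Hspa1b UMIs together in each class and library, with exact 95% binomial intervals. WT points lie between 33.6% and 41.5% in 7 classes and mutant (ND6) points of the classes at or below 22.2%, while WT microglia or macrophages lie at 19.3%.

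Microglia or macrophages held the highest WT levels of 6 members (Hspa1a, Hspa1b, Hspa8, Hspa5, Dnajb1 and Hsp90ab1). Hspa1a stood at 478 CPM in WT and 44.1 in mutant (409 and 14 UMIs, log2 -3.44, interval -4.32 to -2.67). Dnajb1 stood at 569 and 180 CPM (log2 -1.66), and Hspa5 at 883 and 255 CPM (log2 -1.79). These levels came mainly from 1 of its 2 clusters. The first was led by the chemokine genes Ccl4 and Ccl3 and held Cx3cr1 and P2ry12, markers of microglia (48 WT and 26 mutant cells). The second was led by Igkc and Ccl5 (209 and 116 cells). Igkc itself was at 0 in WT and 3758 CPM in mutant cells there, so the libraries differ in what this cluster holds.

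In the Ccl4-led cluster 9 of 9 measured members were lower in mutant, all at least 2-fold, against 11.5% of genes, with a median log2 ratio of -2.27. Hspa1a had 384 UMIs in WT (993 CPM) and 1 UMI in mutant (7.62 CPM), a log2 ratio of -7.03 with an interval from -12.3 to -4.54. In WT, 38 of the 48 cells held an Hspa1a UMI, and 5 cells held 215 of the 384. Dnajb1 had 1195 CPM in WT and 358 in mutant (log2 -1.74, interval -2.20 to -1.30). Hspa8 had 2654 and 632 CPM (log2 -2.07, interval -2.41 to -1.75). Hsp90aa1 had 1852 and 716 CPM (log2 -1.37, interval -1.70 to -1.06). The early gene Fos was high in this cluster in both libraries, at 4292 and 3185 CPM, and its part in the result was not tested. Ccl4 itself stood at 5381 CPM in WT and 2057 in mutant there, and C1qa at 5058 and 9220 CPM. Median depth was 7766 UMIs per cell in WT and 4946 in mutant, so the libraries differ in what this cluster holds too.

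In the Igkc-led cluster 7 members were measured, 5 lower and none at least 2-fold lower, against 4.93% of genes. Hspa1a had 53.2 CPM in WT and 69.9 in mutant (25 and 13 UMIs) and Dnajb1 53.2 and 53.8 CPM, with intervals of the ratio that included 0. Without the Ccl4-led cluster, no member had its highest WT level in microglia or macrophages.

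**Figure D4:**
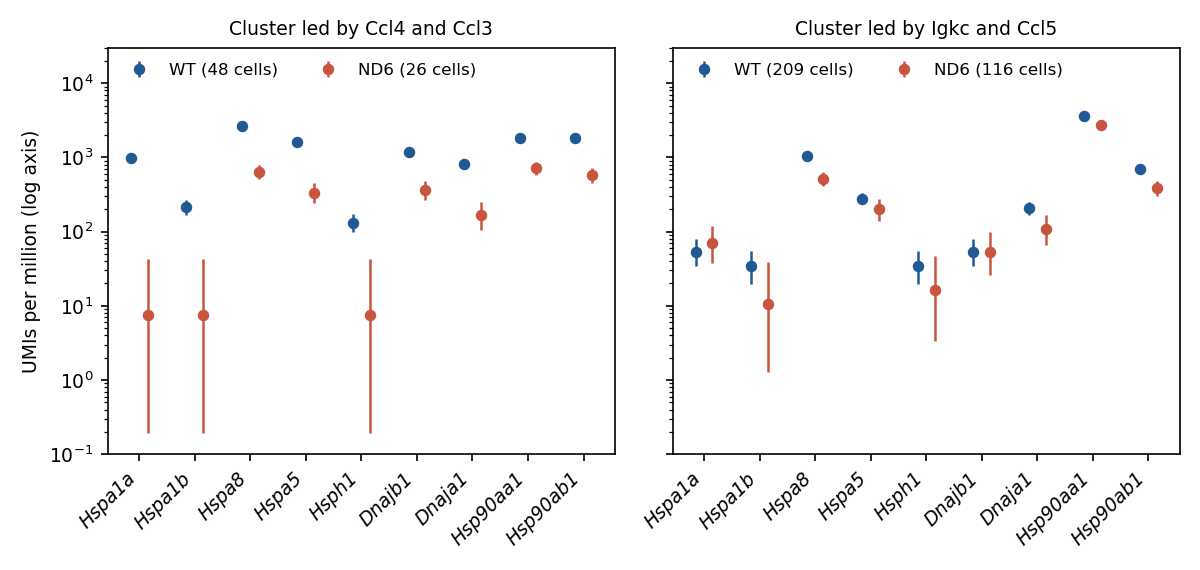
Points give CPM (log axis) of 9 members in the Ccl4-led and the Igkc-led cluster of microglia or macrophages, with exact 95% Poisson intervals. In the Ccl4-led cluster Hspa1a, Hspa1b and Hsph1 rest on 1 mutant (ND6) UMI each (7.62 CPM), and in the Igkc-led cluster the Hspa1a and Dnajb1 intervals overlap.

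Rods were split by depth, since WT rods held more UMIs (medians 1744.5 and 1338). In each stratum 9 members had at least 20 UMIs. All 9 were lower in mutant in rods of up to 1000 UMIs, up to 2500, up to 5000 and over 5000, with medians of -0.83, -0.83, -0.98 and -1.02. The single interval that included 0 was that of Dnajb1 in the shallowest rods. Split by mitochondrial share, the medians were -1.02 in rods below 5%, -1.01 from 5% to 10% and -0.97 above 10%, and all 9 intervals lay below 0 in each.

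**Figure D5:**
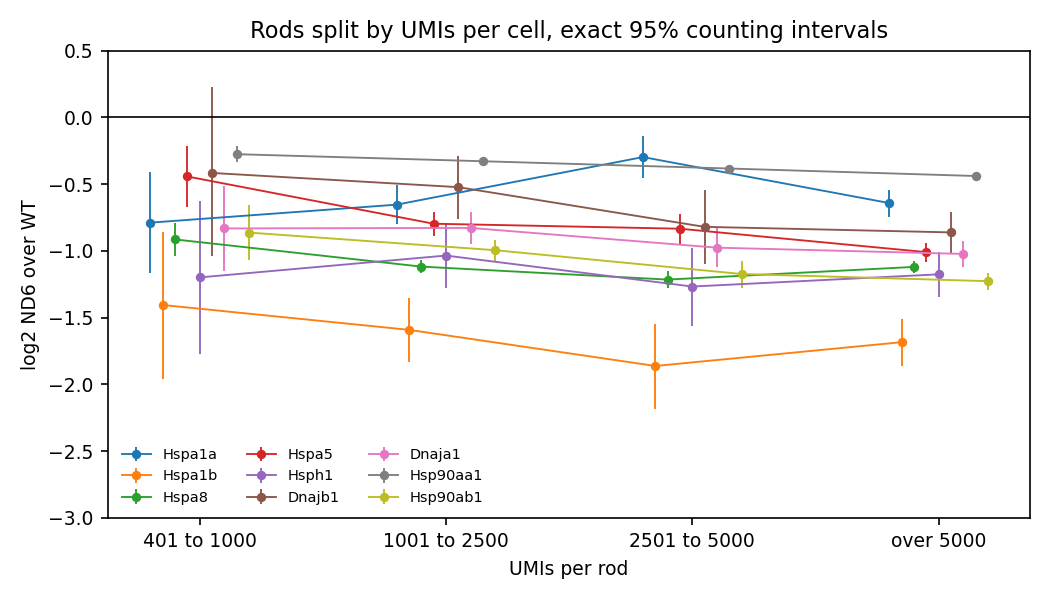
Points give the log2 ratio of mutant to WT of 9 members in rods of 4 depth ranges, with exact 95% counting intervals and lines that join the same gene. Every point lies below 0, with Hspa1b lowest (-1.86 to -1.40) and the grey Hsp90aa1 line between -0.44 and -0.28.

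Genes known to rise early after tissue dissociation were lower too, and their part in the members' result was not tested. All 13 of that list were lower in mutant over all cells and 9 at least 2-fold lower, with a median log2 ratio of -1.12. They were led by Fosb (-2.62), Egr1 (-2.40), Fos (-2.02), Atf3 (-1.91) and Junb (-1.57), followed by Ier2 (-1.12), Zfp36 (-1.12), Dusp1 (-1.08) and Jun (-1.05), while Btg2 moved least (-0.06). Their summed level was 1810 CPM in WT and 811 in mutant. In rods without a UMI of any of the 13 (3854 WT and 6528 mutant), 9 members were lower and 4 at least 2-fold lower, against 0.609% of genes, with a median of -0.76. Hspa8 was then at 1121 and 512 CPM (log2 -1.13) and Hspa1b at 61.4 and 20.6 CPM (log2 -1.58). In rods with such a UMI (5868 and 6650) 4 were at least 2-fold lower, against 1.3% of genes, and the median was -0.97. Both sets belong to the libraries on which the members were chosen, so nothing is read from these counts. Of the 9 members with at least 20 UMIs in both sets, Dnajb1 moved most between them, from -0.86 with such a UMI to -0.38 without. The sets also differ in depth, with medians of 1348 WT and 1161 mutant UMIs per rod without such a UMI and 2647 and 1871 with one, so early-gene level and depth cannot be told apart in this split.

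Other chaperone lists had medians nearer to that of all genes (0.07) than the members did. Since the members were chosen on this contrast, nothing is read from that difference. Over all cells 6 other HSP70 and HSP110 genes were measured, 3 higher and 3 lower, with a median of -0.07, from Hspa14 (-0.20) to Hspa2 (0.77). Of 10 other J-domain genes 4 were higher and 6 lower (median -0.14), from Dnajb2 (-0.71), a neuronal form, to Dnajb5 (0.43). Of 15 cochaperones 4 were higher and 11 lower (median -0.29), from Ahsa1 (-0.84), which activates the HSP90 ATPase, to Bag1 (0.38). All 8 subunits of the chaperonin CCT were lower by little (median -0.20), from Cct4 (-0.42) to Tcp1 (-0.11). No gene of these 4 lists reached 2-fold.

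Of the other small heat shock genes 1 of 4 was higher (Hspb6, 0.14), the median was -0.56, and Hspb8 was lowest (-1.55, on 33 and 13 UMIs). The 4 heat shock factor genes and Hsbp1, which binds a heat shock factor, were all lower (median -0.16), from Hsf5 (-0.77, on 31 and 21 UMIs) to Hsf2 (-0.12), with Hsf1 at -0.32. Of 17 other ER chaperone and unfolded protein response genes 16 were lower, with a median of -0.37 and none at 2-fold. They ran from Herpud1 (-0.81), which takes part in ER protein degradation, to Pdia3 (0.08), a disulfide isomerase. Hspa5 (-1.01) lay below all 17, but as a member it was chosen on this contrast.

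The genes most like a member in pattern were sought over the 7 named classes in both libraries, by Pearson's r of log2(CPM + 1) over these 14 points, which share libraries and free RNA. For Hspa8 the 5 highest were Hsp90ab1 (0.89), Brd1 (0.88), Msl3 (0.86), Dnaja1 (0.86) and 1700123O20Rik (0.86). Hsp90ab1 and Dnaja1 are members. The points span both libraries, the contrast on which the members were chosen, so nothing is read from their place here. For Hspa5 they were Manf (0.88) and Calr (0.87), both ER genes, then Sap18 (0.87), Bud31 (0.85) and Saraf (0.83). For Hspa1a they were Ifrd1 (0.97), Cks2 (0.94), 4930481A15Rik (0.86), Cggbp1 (0.85) and Eif4e2 (0.85).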

How the data were processed

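Retinal cells of 1 WT and 1 mutant library (10x Genomics 3′ chemistry) were sequenced, aligned to mm10 and counted by the authors with Cell Ranger (v3.0.2), and the deposited values are raw counts of UMIs per gene and barcode, 77958836 in WT and 80358255 in mutant. The annotation release is not given in the sources used here. The study's cell filter was applied (over 400 UMIs, over 200 genes, mitochondrial share up to 20%), and its last step removed 10647 WT and 3861 mutant barcodes.

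Counts were summed per library and divided by the summed UMIs (CPM, scaled to 1000000 UMIs). Ratios carry exact conditional intervals, levels exact Poisson intervals and shares exact Clopper-Pearson intervals, all at 95%. Genes needed 20 UMIs over both libraries, and called means past 2-fold, with 0.5 UMIs added in each library for the calls over all genes. Cells were clustered with scanpy 1.11.5 (3000 variable genes, 30 components, 20 neighbours, Leiden resolution 1), leaving out mt- genes and all listed stress genes. Each cell was thinned to 400 UMIs for shares, and barcodes with 10 to 100 UMIs stood for free RNA. Clusters were named from markers by a rule settled after the clusters were seen. Scrublet called 0 doublets, so it did not work and doublets were kept. The 10 genes and the lists were chosen with earlier results of these data known. The text names all 10 members, list genes past 2-fold or at either end of their list, further early genes past 2-fold, and the 5 genes most like Hspa1a, Hspa8 and Hspa5. Hsf1 was named after its value was seen. The ratio was tested on simulated data. Alternatives covered cell limits, scaling, thinning, doublet scores, free RNA and clustering.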

Additional observations from a re-analysis of the deposited data

Results flagged for a closer look

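Hsp90ab1 and Hspb1 went opposite ways in cells and in the barcodes above the 20% mitochondrial limit. In those barcodes (10647 WT and 3861 mutant) the Hsp90ab1 log2 ratio was 0.13 (interval 0.05 to 0.21, 354 CPM in WT and 388 in mutant), against -0.97 in cells. Within the barcodes above the limit that clustered with rods it was -0.76 (interval -0.97 to -0.55), and in those that clustered as ganglion-like cells, 2.30% of the WT and 14.8% of the mutant barcodes, it was 0.17 (interval -0.04 to 0.38). In the largest set, barcodes of unnamed clusters (48.3% of the WT and 50.4% of the mutant barcodes), it was 0.21 (interval 0.08 to 0.33). The Hspb1 ratio above the limit was 1.28 (interval 0.38 to 2.16, on 25 and 22 UMIs), against -0.61 in cells. The other 8 members were lower there too. The differences between these sets of barcodes were not tested.

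Hspb1 also stood at 61.9 CPM in WT barcodes with 10 to 100 UMIs (14 UMIs in 13 barcodes, interval 33.8 to 104), against 1.87 CPM in WT cells and 2.57 CPM (1 UMI) in the mutant barcodes of that size. No value of another member differed that far between these barcodes and cells.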

How the results depend on the processing

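The count of members lower in mutant over all cells was 10 under 8 of the 10 alternatives that kept all 10 genes. It was 9 with cells thinned to 400 UMIs (Hspb1 then 0.32) and 9 with free RNA removed as a fixed 10% of UMIs (Hspb1 then at 0 in WT). Of these alternatives, leaving out the filter on low counts could not change the count, since all 10 genes passed that filter. No paired analysis was possible because each group had 1 library and no test was made. The number at least 2-fold lower was 2 with no mitochondrial limit, 2 with cells weighted equally, and 7 with free RNA removed. The median log2 ratio was -0.85 with no mitochondrial limit, -0.81 with cells weighted equally, -0.75 with cells thinned and -1.05 with free RNA removed. Alternatives chosen after the data were seen gave -0.89 without microglia or macrophages and -0.81 in barcodes above the mitochondrial limit. In those barcodes Hsp90ab1 (0.13) and Hspb1 (1.28) were higher in mutant. The number of members at least 2-fold lower in rods kept within 1.5 times its value of 4 (3 to 6). The number of members with their highest WT level in microglia or macrophages fell to 3 of 6 with cells weighted equally and to 0 without the Ccl4-led cluster (chosen after the data were seen). Leaving the deepest cell of each library out of a class (chosen after the data were seen) moved the number lower in RPE from 10 to 8, with Hsp90aa1 and Hspa1a then higher, and the number at least 2-fold lower by at most 1 in any class. No value past 2-fold changed sign over all cells or in rods. Scaling by the median of ratios made the log2 ratios over all cells lower by 0.07. The cause of these changes was not tested. Depth limits Hspb1 everywhere and Hspa1a, Hspa1b and Hsph1 in mutant microglia or macrophages.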
